A study of Macaca mulatta with 6 samples.

Results

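The genes described here build, supply and run the expression system of mitochondria. Many encode the proteins of the mitochondrial ribosome (MRPL and MRPS genes). Others encode the protein import complexes of the inner and outer membrane (TIMM and TOMM genes, and the metaxins MTX1, MTX2 and MTX3). The rest encode proteins that copy, pack or transcribe mitochondrial DNA (POLRMT, TFAM, TFB2M, TWNK, POLG and POLG2), and TFB1M, a methyltransferase of mitochondrial ribosomal RNA. The rule itself uses symbols and no measured value, but the group was proposed with results of these data known. The rule found 103 genes with 101 symbols, out of 24186 genes with a symbol and 35432 genes in the deposited table. MRPS33 and TOMM40L each stood for 2 genes. The rule also takes TIMMDC1, an assembly factor of respiratory complex I that is not an import subunit. It is counted among the TIMM genes and had no count.

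RNA was sequenced from plasma of 2 rhesus macaques, named animal A and animal B. The deposited statistics name 3 gradient fractions per animal, holding lipoproteins, extracellular vesicles (EVs, the membrane-bound particles shed by cells) and proteins, with 1 library for each fraction and animal. Samples had been treated with proteinase K, RNAse and DNAse. The labels gave neither age, sex, diet nor stress exposure of the animals, and they name all 6 libraries as plasma EV tissue, whatever the fraction. Gene counts were available as 4 columns, an EV library for each animal and a sum for each animal made by the authors. The sources used here do not say which libraries a sum holds.

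Mitochondria keep a small genome of their own. A dedicated RNA polymerase transcribes it, and a dedicated ribosome translates its messenger RNAs into a few subunits of the respiratory chain. All proteins of that ribosome and of the transcription machinery are encoded in the nucleus, made in the cytosol and brought in through the TOM complex of the outer membrane and the TIM complexes of the inner membrane. Most of the genes are transcribed in nearly every nucleated cell, and many ribosomal and small TIM proteins are short. What follows concerns RNA counts assigned to these genes in plasma, not the proteins. Whether the counts come from their messenger RNAs was not tested.

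Depth was low. The EV library of animal A held 10397 gene counts and that of animal B 2842, and the sums held 62794 in A and 54534 in B. A count of 0 was taken to allow up to 3 counts, a share of 0.0289% in EV A, 0.106% in EV B, 0.00478% in the sum of A and 0.00550% in the sum of B. All intervals and limits given here cover counting error only, and PCR copies among the counts would make the true error larger. Of 15 vesicle marker symbols, matched by 16 genes, 1 gene (6.25%) had a count in EV A and 1 in EV B, beside 2.96% and 1.4% of genes with a symbol. It was the tetraspanin CD9 in each, with 2 counts in each. Of 25 blood cell and liver marker genes, 0 had a count in either EV library, which is near those background shares for a list of that size. In the sums, 3 of the vesicle marker genes (18.8%) had a count in A and 1 (6.25%) in B. Of the blood cell and liver marker genes, 2 (8%) had a count in A and 1 (4%) in B. The background shares in the sums were 13.3% and 10.5%. The vesicle genes CD63 and TSG101 and the liver gene ALB were among those with 0 counts in all 4 columns. In bulk RNA of this kind, fewer vesicles and less RNA per vesicle cannot be told apart.

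Few of the mitochondrial genes left a trace in plasma, as was true of genes with a symbol in general. In the sum of animal A, 10 of the 103 genes (9.71%) had a count, beside 13.3% of all genes with a symbol. In the sum of animal B, 4 of 103 (3.88%) had a count, beside 10.5%. The remaining 93 genes had 0 counts in all 4 columns. All 4 genes found in B were among the 10 found in A, 6 were found in A only and 0 in B only. The median count was 0 in every column, both for these genes and for all genes with a symbol. In the sum of A the share was below the background by a few genes only, and nothing is read from that. In the sum of B it was below the background by more genes. Both sums may hold counts in common, and no replicate of a sum exists, so the gap was not tested.

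The background share depended on which genes were taken. The symbol table names many copies of small structural RNAs, such as Metazoa_SRP and U6, beside genes that encode proteins. Of the 16836 genes whose symbol RefSeq lists as protein coding, 18.7% had a count in the sum of A and 14.8% in that of B. Against these, which include 102 of the 103 mitochondrial genes, the gap was wider. At a minimum of 2 counts it was narrow in A, with 5 genes (4.85%) beside 5.49% of genes with a symbol, and wider in B, with 2 genes (1.94%) beside 4.18%. Transcript lengths were not used, so how far short transcripts go with the low detection was not tested.

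**Figure D1:**
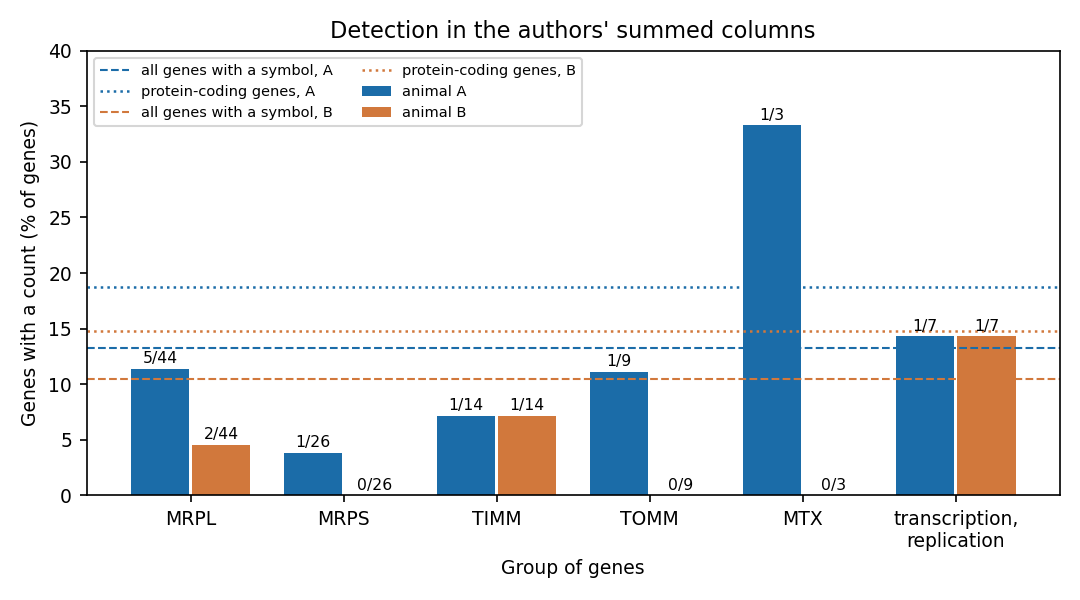
Percent of genes with at least 1 count in the authors' summed columns, by gene group, for animal A (blue bars) and animal B (orange bars). Fractions above the bars give detected genes over genes in the group. Dashed lines mark all genes with a symbol (13.3% in A, 10.5% in B) and dotted lines genes that RefSeq lists as protein coding (18.7% and 14.8%). The MRPL bars, the largest group, stand below the lines of their own animal, and the MTX and transcription bars each rest on 1 detected gene.

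Of the 70 genes of the mitochondrial ribosome, 6 had a count in the sum of animal A (8.57%) and 2 in that of B (2.86%), beside 13.3% and 10.5% of genes with a symbol, and together they held 9 and 3 counts. Among the MRPL genes, 5 of 44 were detected in A (11.4%), near the background, and 2 of 44 in B (4.55%). Among the MRPS genes, 1 of 26 was detected in A (3.85%) and 0 of 26 in B. In the sum of A the ribosome supplied 6 of the 10 detected genes but 9 of the 367 counts.

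Single genes show how thin this signal was. MRPL21, a protein of the large subunit, had 2 counts in the sum of each animal and 0 in both EV libraries. MRPL45, which lies near the exit of the peptide tunnel and helps to hold the ribosome at the inner membrane, had 2 counts in the sum of A, 1 in that of B and 0 in both EV libraries. These were the only ribosomal genes found in both animals. MRPL54 had 2 counts in EV A, which were its whole sum in that animal, and 0 in B. MRPL3 had 1 count in EV A, also its whole sum, and 0 in B. MRPL33 and MRPS30 had 1 count each in the sum of A, outside the EV count, and 0 in B. MRPS30 is named for the small subunit but has its place in the large subunit of the mammalian ribosome. The remaining 25 genes with MRPS symbols had 0 counts. Values of 1 or 2 counts in a column are at the floor, and no difference between animals can be read from them.

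Apart from MTX1, the import genes were at the floor. TIMM17B, a core subunit of the inner membrane channel for proteins with a presequence, had 1 count in the sum of each animal and 0 in both EV libraries. It was the only one of 14 TIMM genes with a count (7.14% in each sum, beside 13.3% and 10.5% of genes with a symbol). TOMM7, a small subunit of the outer membrane channel, had 1 count in the sum of A and was the only one of 9 TOMM genes with one (11.1%, near the background). The pore gene TOMM40 and the receptor genes TOMM20, TOMM22 and TOMM70 had 0 counts in all 4 columns. TIMM22, the channel gene for carrier proteins, and the ribosomal gene MRPL41 were listed in the EV table but at 0 in each column. In all, 12 of the 103 genes (11.7%) were listed in the EV table, beside 16.8% of genes with a symbol, and these 12 included the 10 that were detected.

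**Figure D2:**
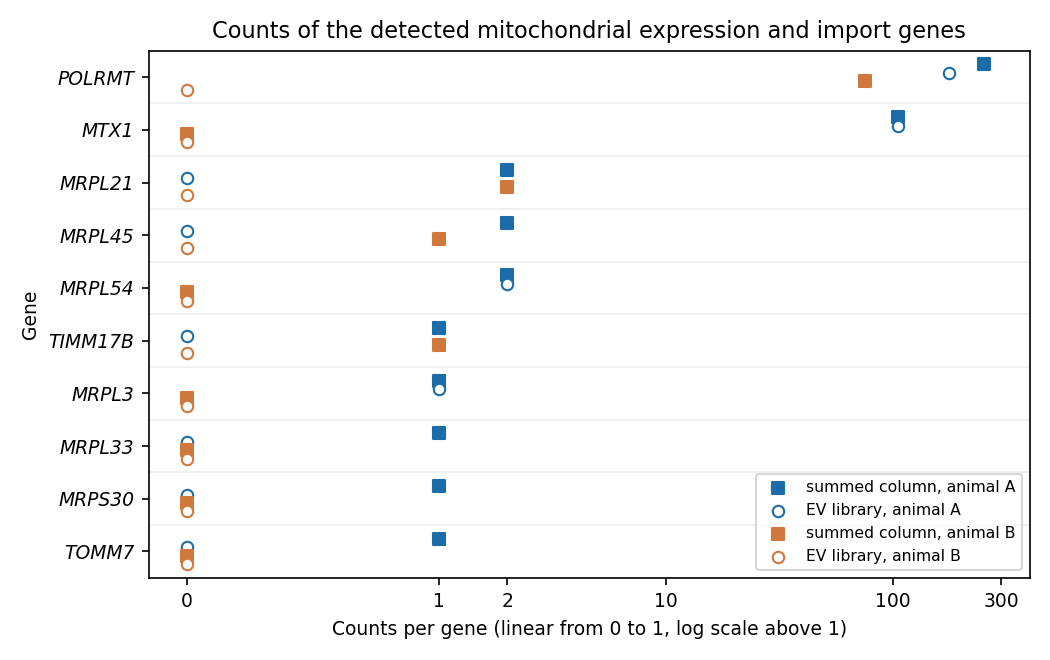
Counts of the 10 detected genes in 4 columns. Filled squares are the authors' sums and open circles the EV libraries, blue for animal A and orange for animal B. The axis is linear from 0 to 1 and logarithmic above. POLRMT in both sums and in EV A, and MTX1 in the sum and EV library of A, stand apart at 75 to 251 counts, MTX1 is at 0 in B, the other 8 genes have at most 2, and all open orange circles lie at 0.

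POLRMT was the leading gene. It encodes the single-subunit RNA polymerase that transcribes mitochondrial DNA and makes primers for its replication. POLRMT (ENSMMUG00000049968) had 176 counts in EV A, 0 in EV B, 251 in the sum of A and 75 in the sum of B. Its share was 1.69% of the counts of EV A (95% Clopper-Pearson interval 1.45% to 1.96%), 0.400% of the sum of A (0.352% to 0.452%) and 0.138% of the sum of B (0.108% to 0.172%). Against the 3 counts that a value of 0 allows in EV B, the share in EV A was at least 16.0-fold higher by its point value, and at least 13.8-fold at the lower end of its interval. The upper end of the 95% interval for 0 counts in EV B was 0.130%, above the 0.106% of that floor. Set against this upper end, the folds given for POLRMT and for MTX1 would be lower. At the share of EV A, the smaller library of B would have held 48.1 counts of POLRMT. The comparison is of 2 libraries, each from 1 animal. POLRMT and MTX1 were known to lead when the group was chosen, so nothing is read from their folds.

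MTX1 was second. It encodes metaxin 1, an outer membrane protein that works with the sorting and assembly machinery through which barrel-shaped proteins enter that membrane. MTX1 (ENSMMUG00000008506) had 105 counts in EV A, 0 in EV B, 105 in the sum of A and 0 in the sum of B. Its share of EV A was 1.01% (0.827% to 1.22%), at least 9.57-fold higher than in EV B against the same floor by its point value, and at least 7.83-fold at the lower end of its interval. At the share of EV A, EV B would have held 28.7 counts. As for POLRMT, nothing is read from these folds. The other metaxin genes, MTX2 and MTX3, had 0 counts in each column.

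Both genes ranked high among the genes with a symbol. In EV A, POLRMT was the sixth and MTX1 the tenth of 715 detected genes by count, whereas MRPL54 and MRPL3 lay among the 563 genes with 1 or 2 counts. In the sum of A, POLRMT had rank 15 and MTX1 rank 35 of 3205, and in the sum of B POLRMT had rank 36 of 2538. These ranks are of counts, not of levels per length. At a minimum of 10 counts, 2 of the 103 genes (1.94%) passed in the sum of A beside 0.996% of genes with a symbol, and 1 (0.971%) in the sum of B beside 0.823%. In EV A 2 of 103 passed beside 0.161%, and in EV B 0 passed beside 0.0538%. The genes that passed were POLRMT and, in animal A, MTX1, which were known to lead when the group was chosen, so nothing is read from their number.

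**Figure D3:**
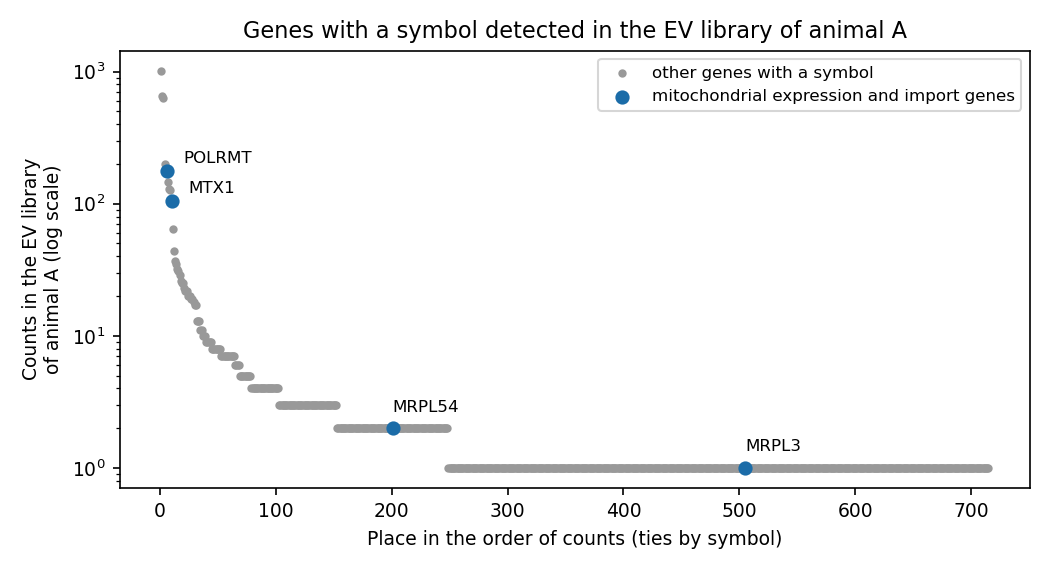
Counts of the 715 genes with a symbol detected in the EV library of animal A, in falling order on a logarithmic axis, with the 4 mitochondrial genes in blue. POLRMT (176) and MTX1 (105) lie in the steep part of the curve, and MRPL54 (2) and MRPL3 (1) lie on its flat tail.

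Counts of the mitochondrial genes were found in the EV library of animal A only. In EV A, 4 of 103 genes (3.88%) had a count, beside 2.96% of genes with a symbol and 4.14% of protein-coding genes. In EV B, 0 of 103 had a count, beside 1.4% and 1.95%. The share detected in EV A was near the background. For a group of this size, 0 of 103 in EV B is near it too, so no difference between the animals is read from detection. The 4 genes held 284 counts in EV A, or 2.73% of that library (2.43% to 3.06%), and 281 of these came from POLRMT and MTX1. In EV B the 0 counts allow a share of up to 0.106%. EV A was sequenced more deeply, with 2615337 input reads against 913091.

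In animal A the EV counts of POLRMT and MTX1 were large beside the authors' sums. Whether a sum holds the EV library is not stated, so the EV part means the EV count in percent of the sum. It was 77.4% of the 367 summed counts of the 103 genes (72.8% to 81.6%). For the other genes with a symbol it was 13.5% (13.1% to 13.8%). POLRMT and MTX1, known to lead when the group was chosen, gave 281 of the 284 EV counts, so nothing is read from that gap. For POLRMT alone the EV part was 70.1% (64.0% to 75.7%). Without POLRMT and MTX1 it was 3 of 11 counts, or 27.3% (6.02% to 61.0%), an interval that includes the share of the other genes. In animal B the EV part was 0 of 79, beside 3.01% for the other genes with a symbol. The table names and the strand used for counting may differ between the EV columns and the sums, which would touch each of these shares.

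With the EV counts taken off, the 103 genes kept 83 counts in A and 79 in B, of which 75 in each were of POLRMT. All genes with a symbol were also close, with 31597 counts left in A and 29582 in B. MRPL21 kept 2 in each, TIMM17B 1 in each, and MRPL45 2 in A and 1 in B. MTX1, MRPL54 and MRPL3 kept 0. Genes with a remaining count then numbered 7 in A (6.80%) beside 11.9% of genes with a symbol, and 4 in B (3.88%) beside 9.77%. An equal remainder was not particular to POLRMT. Of the 110 genes with a symbol that kept 20 or more counts in A, 12 (10.9%) kept the same number in B. Whether the sums share counts was not tested here, so the equal values in A and B are not taken as 2 measurements.

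**Figure D4:**
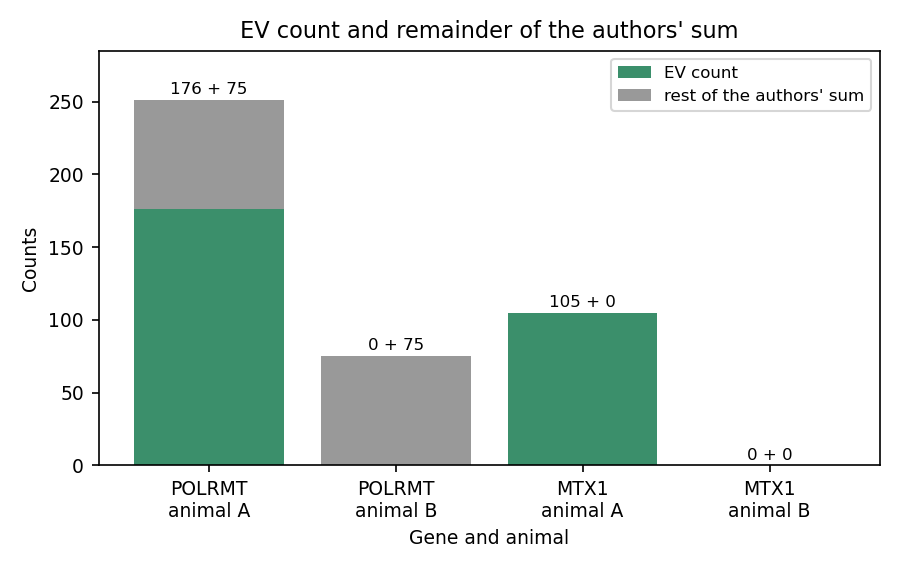
Counts of POLRMT and MTX1 in the authors' sum of each animal, split into the EV count (green) and the rest (grey), with both numbers above each bar. The grey part of POLRMT is 75 in both animals, and MTX1 in animal A is EV count alone.

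MTX1 was among 9 genes whose EV count in animal A was their whole sum, out of 39 genes with a symbol and at least 10 counts in EV A. It had the most counts of the 9, ahead of USP4 with 37. Of these 9 genes, MS4A5 had 1 and SAMD8 had 2 counts in the sum of B, the others had 0, and all 9 had 0 in EV B.

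TFAM, which packs mitochondrial DNA and bends its promoters, and TFB2M, which opens the promoter for POLRMT, had 0 counts in all 4 columns. So did TFB1M, a methyltransferase of mitochondrial ribosomal RNA, the helicase gene TWNK, and POLG and POLG2, the catalytic and accessory subunits of the mitochondrial DNA polymerase. Since 13.3% of all genes with a symbol had a count in the sum of A and 10.5% in that of B, 6 genes at 0 are near the background, and nothing particular to them is read from it. In the sum of A, a count of 0 allows each a share of up to 0.00478%, against 0.400% for POLRMT. Counts were not scaled by length, so this sets shares of the library side by side, not levels.

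The subunits of the nuclear RNA polymerases were set beside POLRMT after the values were seen. Of 28 such genes, 6 had a count in the sum of A (21.4%, beside 13.3% of genes with a symbol) and 2 in that of B (7.14%, beside 10.5%), with at most 2 counts each. POLR2B, which encodes the second largest subunit of RNA polymerase II, had 2 counts in EV A and was the only one with an EV count. In the RefSeq gene table of T2T-MMU8v2.0, protein-coding genes were taken around POLRMT by start position, more on one side than on the other. These 5 genes were BSG, PALM, HCN2, FGF22 and RNF126. All 5 had 0 counts in all 4 columns, as most genes did. The sources used here give no assembly for the deposited counts, so the neighbours were matched by name.

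Other nuclear genes of mitochondrial gene expression were detected at shares on both sides of the background. Mitochondrial aminoacyl-tRNA synthetases load amino acids onto transfer RNAs. Of their 19 genes, 4 had a count in the sum of A and 5 in that of B (21.1% and 26.3%). Beside these stood 13.3% and 10.5% of genes with a symbol and 18.7% and 14.8% of protein-coding genes. In A the share was near that of protein-coding genes, and in B it was above both, which was not tested. FARS2, the phenylalanine enzyme, held most of their counts, with 20 of 23 in the sum of A and 25 of 34 in that of B. It had 4 counts in EV A and 5 in EV B, so that, unlike POLRMT and MTX1, it had a count in all 4 columns. Among 21 further genes of mitochondrial DNA maintenance and transcription, 3 were detected in A (14.3%) and 2 in B (9.52%), near the share of genes with a symbol. RRM2B, a ribonucleotide reductase subunit that supplies building blocks for mitochondrial DNA, had 8 and 15 counts in the sums and 3 and 2 in the EV libraries. LONP1, a matrix protease, had 3 and 5 in the sums and 1 in each EV library. PNPT1, also on this list, had 7 counts in the sum of A and 0 in the sum of B and in both EV libraries.

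Of 29 genes for assembly and translation factors of the mitochondrial ribosome, 3 had a count in each sum (10.3%, beside 13.3% of genes with a symbol in A and 10.5% in B), all with 1 count. In EV B 2 of them (6.90%, beside 1.4%) were detected with 1 count each, the elongation factor gene TUFM and the helicase gene DHX30. Of 35 further genes of import and of the outer membrane, 3 had a count in each sum (8.57%, beside the same 13.3% and 10.5%). The fusion gene MFN2 had the most with 4, all in A, and VDAC1, the gene of the main outer membrane channel for metabolites, had 1 in B. The 13 mitochondrially encoded protein genes had 0 counts in all 4 columns. How these genes were annotated and counted is not given, and its part in the 0 counts was not tested.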

How the data were processed

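STAR was the aligner, per the submitters' processing notes. The sources used here do not give its version, the genome build, the annotation, the counting step or any use of molecular identifiers. The authors deposited raw counts per gene for the EV library of each animal and whole-number sums per animal, which carry no SD. Genes absent from the EV table were set to 0. The statistics the authors deposited gave input reads, and mapped reads in percent, which were not compared here.

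Gene identifiers were paired with symbols through a reference table, which named 24186 of 35432. The rule was applied with pandas 2.3.3 and found no gene for 11 RefSeq symbols that it would take (MRPL2, MRPL12, MRPL27, MRPL55, MRPL58, MRPS5, MRPS10, MRPS24, TIMM13, TOMM5 and TOMM6), which were not analysed here. Exact intervals used scipy 1.17.1 and were checked on simulated data. The simulated counts followed the model behind the intervals and held no PCR copies, so the check covers counting error only. With 1 column per animal no p-value could be given between animals.

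Genes, lists and backgrounds were chosen with earlier results of these data known. Named genes were those with an EV count, the 12 with the highest mean sum (of which 10 had a count), the leading gene of each group, and up to 4 genes with 10 or more summed counts in each other list. All other named genes were chosen after their values were seen. Reads from near-identical gene copies could be lost in counting, so counts of such genes are uncertain. RefSeq names came from T2T-MMU8v2.0, and its start positions were used only to order the genes around POLRMT. A comparison with cytosolic ribosomal protein genes is not reported here.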

Additional observations from a re-analysis of the deposited data

How the results depend on the processing

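Of 32 alternatives to 15 values, 24 moved the value and 8 did not, where a count moved if it changed by more than 1.5 times, and a share or ratio if it left the 95% interval of the main value. A minimum of 2, 5 or 10 counts left 5, 2 and 2 detected genes in the sum of A and 2, 1 and 1 in that of B, and requiring 2 counts over both sums left 6 in A. The background was 10.3% in A and 8.15% in B over all genes of the summed table, 18.7% and 14.8% over protein-coding genes, and 17.7% and 14% over symbols given once. The last 2 backgrounds were chosen after seeing the data. Summed counts fell from 367 to 116 in A without POLRMT, and to 11 without MTX1 as well, and from 79 to 4 in B. EV counts in A fell from 284 to 3 without both genes. The group held 0.997% of the counts of genes with a symbol in the sum of A. It held 0.259% of them in that of B and 5.47% in EV A. On that measure, against the floor of 3 counts, POLRMT and MTX1 had EV shares at least 10.3-fold and 6.16-fold higher in A. These folds are descriptions, as both genes were known to lead when the group was chosen. Genes with an EV count numbered 0 without the EV library of A and 4 without that of B. Classes of protein length were not run, as no protein lengths were at hand. No paired analysis was possible because gene counts of single libraries covered the EV fraction alone.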
